A study of Mus musculus with 6 samples.

Results

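HOX genes encode homeodomain transcription factors that lie in 4 clusters, Hoxa to Hoxd, and the 28 HOX rows of a mouse ear skin count table are described here, out of 18482 genes in all. Members were taken by symbol, as every row named Hoxa, Hoxb, Hoxc or Hoxd with a number. RefSeq lists 39 such genes for the same genome build, and the other 11 (Hoxa9, Hoxa10, Hoxa11, Hoxa13, Hoxc8, Hoxc9, Hoxc10, Hoxc11, Hoxc12, Hoxd11 and Hoxd12) were not analysed here. All mice had received tamoxifen, and ear skin was taken on postnatal day 21. The lecko group (3 libraries) carried a deletion of Kdr, the gene of VEGFR2, directed to lymphatic endothelium, and the control group (3 libraries) were their littermates. For these mice the sources used here give no Cre driver, strain or single tamoxifen schedule, nor is it stated whether a library came from 1 animal, so p-values measure the spread between these libraries.

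HOX genes are switched on along the body axis in the order in which they sit in their cluster, from paralogue group 1 at the 3′ end to group 13 at the 5′ end, so that the set a cell expresses records where it came from. Human skin fibroblasts are known to keep such a HOX pattern into adult life. Dermis of the face derives largely from neural crest without HOX expression, while the second pharyngeal arch, a main source of the outer ear, expresses Hoxa2, which the mouse needs to form a pinna. Hoxc13 is a special case, since it acts in the hair follicle and nail, where it controls hair keratin genes.

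Each library held 17242921 to 17825135 estimated counts, of which 1133 to 1258 fell on HOX genes. Kdr, the deleted gene, was at 9.76, 11.2 and 10.2 CPM (counts scaled for sequencing depth) in lecko libraries 1 to 3, against 32.6, 31.3 and 38.5 CPM in controls 1 to 3. Summed counts of 4 Y-linked genes were 4, 21 and 9 in the lecko libraries, against 18, 4272 and 4564 in controls 1 to 3, so controls 2 and 3 stand apart from the 4 other libraries. Markers of the labelled tissue were present: all 6 keratinocyte and all 7 dermal fibroblast markers were tested, with summed levels of 22369 to 23545 and 18496 to 20483 CPM in lecko skin and 21957 to 25313 and 15617 to 24783 CPM in control skin.

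The data gave ear skin an uneven HOX pattern. Of the 28 HOX genes, 9 averaged at least 1 CPM over the 6 libraries, among them Hoxa2, Hoxb2, Hoxb3, Hoxc13, Hoxd4, Hoxd8, Hoxd9 and Hoxd10. The same number reached 1 CPM in every library. A further 3 genes, Hoxa3, Hoxa4 and Hoxd3, lay between 0.769 and 0.940 CPM on average, and the other 16 lay at or below 0.237 CPM. By cluster, 2 of 10 Hoxb, 1 of 4 Hoxc and 4 of 7 Hoxd genes averaged 1 CPM or more. Hoxd genes held 61.5% of all HOX reads, Hoxa genes 20.9%, Hoxb genes 10.6% and Hoxc genes 6.99%.

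The 300-base promoter windows of Hoxa2 and of the 3 neighbours Hoxd8, Hoxd9 and Hoxd10 are shown because these genes had the 4 highest levels per kb of transcript. Each window runs from 250 bases before to 50 after the start site, is taken from RefSeq (GRCm38.p6) and reads 5′ to 3′ on the gene's strand. Capitals mark matches on either strand to TGATTNAT (bound by HOX with PBX), TGACAG (bound by MEIS), TATAAA (the TATA box), CCAAT (the CCAAT box) or GGGCGG (the GC box). Hoxa2 lies on the minus strand at chr6:52164782-52165081, and the others on the plus strand at chr2:74704365-74704664 (Hoxd8), chr2:74697513-74697812 (Hoxd9) and chr2:74691641-74691940 (Hoxd10).
Hoxa2: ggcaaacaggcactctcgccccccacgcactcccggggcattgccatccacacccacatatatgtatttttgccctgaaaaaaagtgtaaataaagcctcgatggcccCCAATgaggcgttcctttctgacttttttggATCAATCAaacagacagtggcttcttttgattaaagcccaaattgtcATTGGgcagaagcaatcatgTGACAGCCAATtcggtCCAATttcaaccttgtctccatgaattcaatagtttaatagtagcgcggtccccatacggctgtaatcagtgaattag
Hoxd8: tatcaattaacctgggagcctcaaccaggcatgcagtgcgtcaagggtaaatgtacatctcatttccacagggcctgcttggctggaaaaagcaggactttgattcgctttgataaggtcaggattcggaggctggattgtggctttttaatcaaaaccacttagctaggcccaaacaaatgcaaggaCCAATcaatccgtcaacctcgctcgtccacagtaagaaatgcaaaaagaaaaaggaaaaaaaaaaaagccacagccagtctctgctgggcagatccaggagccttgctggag
Hoxd9: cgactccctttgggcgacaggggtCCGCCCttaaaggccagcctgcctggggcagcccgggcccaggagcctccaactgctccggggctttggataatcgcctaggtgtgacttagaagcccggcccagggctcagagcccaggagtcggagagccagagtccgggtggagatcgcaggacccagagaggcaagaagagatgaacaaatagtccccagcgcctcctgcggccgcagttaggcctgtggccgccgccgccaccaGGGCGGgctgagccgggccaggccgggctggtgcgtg
Hoxd10: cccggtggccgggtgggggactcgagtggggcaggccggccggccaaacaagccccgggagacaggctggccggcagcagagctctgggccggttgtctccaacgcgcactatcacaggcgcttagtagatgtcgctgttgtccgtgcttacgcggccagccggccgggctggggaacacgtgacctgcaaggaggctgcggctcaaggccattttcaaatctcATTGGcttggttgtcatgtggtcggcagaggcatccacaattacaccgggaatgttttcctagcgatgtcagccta
The Hoxa2 window held 1 HOX-PBX match, starting at base 140, a single MEIS match and 4 CCAAT boxes, and no matches to different motifs overlapped. The last 20 bases of the window occur in a GENCODE M21 transcript of the gene for Hoxa2, Hoxd8 and Hoxd9 but not for Hoxd10. Of the 16 HOX promoter windows that matched the table, 1 (6.25%) held the HOX-PBX letters, against 3.22% of 32851 promoters. CCAAT was in 12 of the 16 HOX windows (75%), against 37.4% of all promoters, TGACAG in 12.5% against 19.2%, TATAAA in 18.75% against 13.6% and GGGCGG in 37.5% against 35.7%. CpG dinucleotides numbered 9 in the Hoxa2, 6 in the Hoxd8, 20 in the Hoxd9 and 22 in the Hoxd10 window, against a median of 7 over all promoters. Among genes with 1 count over all libraries, the windows of Hoxa6, Hoxb1, Hoxb8, Hoxd1 and Hoxd13 had 26, 10, 13, 29 and 37. A match is a string of letters, not a site shown to be bound.

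**Figure D1:**
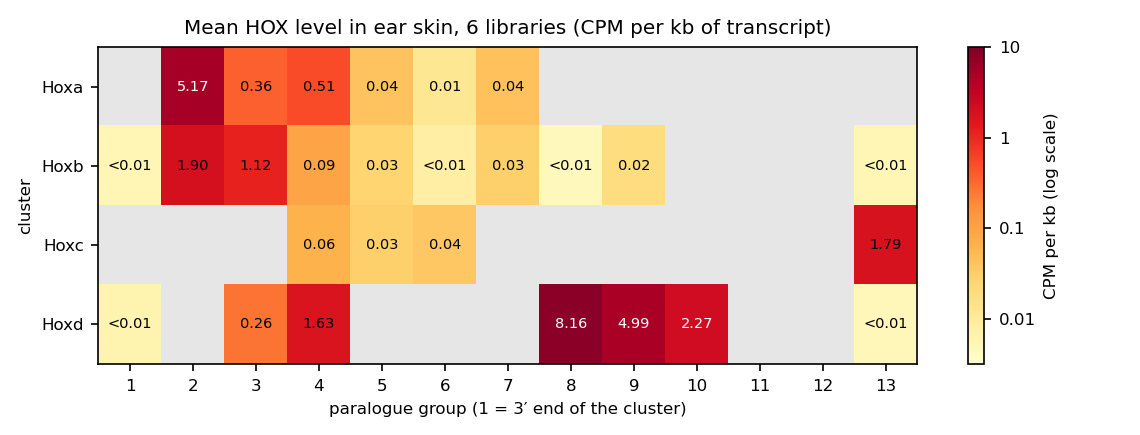
Mean level of HOX genes over the 6 libraries, in CPM per kb of transcript, by cluster (rows) and paralogue group (columns), on a logarithmic colour scale. Grey cells are genes that do not exist in the mouse or are not shown here. Hoxd8, Hoxa2 and Hoxd9 are the darkest cells, at 8.16, 5.17 and 4.99 CPM per kb.

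Levels of different genes were compared per kb of transcript, using the longest transcript that GENCODE M21 matches to RefSeq. Hoxd8 was the highest HOX gene at 8.16 CPM per kb, with a range of 7.48 to 8.95 over the 6 libraries. Hoxa2 followed at 5.17 (4.05 to 5.79) and Hoxd9 at 4.99 (3.73 to 5.78), ranges that overlap each other but not that of Hoxd8. Hoxd10 came next at 2.27 CPM per kb (1.77 to 2.64). Further levels were 1.90 for Hoxb2, 1.79 for Hoxc13, 1.63 for Hoxd4 and 1.12 for Hoxb3, and the range of each overlapped that of its neighbour in this order, Hoxd10 and Hoxb2 included. Hoxa4, Hoxa3 and Hoxd3 had 0.512, 0.363 and 0.259 CPM per kb, also with overlapping ranges. With all annotated exons as the length, a choice made after seeing the data, Hoxb2 was at 0.888 and Hoxb3 at 0.842 CPM per kb, and the first 4 genes kept their ranks. Even Hoxd8, at 21.5 CPM, was below the median of 26.6 CPM over the 14856 genes tested.

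The levels did not run evenly along any cluster. In Hoxd, which lies on chromosome 2, Hoxd1 at the 3′ end and Hoxd13 at the 5′ end had 1 count each over 6 libraries, while Hoxd8 to Hoxd10 between them had 3814 counts. In Hoxa, on chromosome 6, Hoxa2 averaged 9.17 CPM, and Hoxa5, Hoxa6 and Hoxa7 had 8, 1 and 9 counts in all. In Hoxb, on chromosome 11, Hoxb2 and Hoxb3 were the 2 genes above 1 CPM, and Hoxb5 to Hoxb9 had 1 to 5 counts each. In Hoxc, on chromosome 15, Hoxc4, Hoxc5 and Hoxc6 had 13, 9 and 6 counts, against 465 for Hoxc13. Of 12 genes that flank the clusters, 10 passed the filter on low counts, Mtx2 and Lnpk beside Hoxd at a mean of 37.9 and 49.6 CPM, and Ttll6 and Calcoco2 had at most 2 counts in any library.

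The 16 genes with too few counts to test held 60 counts in the lecko libraries and 31 in the controls. In 13 of them no library had more than 3 counts, a floor set here that corresponds to 0.168 to 0.174 CPM. Reads did occur below it, as for Hoxa5 with 2, 2 and 0 counts in lecko libraries and 1, 2 and 1 in controls. Such levels could not be compared between the groups at this depth. Hoxa6, Hoxb1, Hoxb6, Hoxb8, Hoxb13, Hoxd1 and Hoxd13 had 1 count each over all libraries. Hoxb4 was the highest of the 16, with 8, 2 and 8 counts in lecko libraries 1 to 3 and 2, 3 and 2 counts in controls 1 to 3. Hoxb4 therefore overlapped between the groups at 2 counts, and no fold is given for it.

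No HOX gene passed the test for a genotype difference. Of the 12 HOX genes that passed the filter on low counts, 0 were called by edgeR's quasi-likelihood test (Benjamini-Hochberg adjusted p under 0.05 among 14856 genes), where 0.0202% of all genes (3) were called, 0.0135% with higher and 0.00673% with lower lecko values. DESeq2 and limma-voom also called 0 of these 12 HOX genes, and their calls covered 0.195% and 0.0202% of the genes they tested. At an unadjusted p under 0.05, 2 of the 12 HOX genes (16.7%) stood out, Hoxd9 on the lower and Hoxa2 on the higher side, against 8.56% of all genes (3.68% lower and 4.88% higher). The groups did not overlap for 3 of the 12 (25%), Hoxa2 with lecko above control and Hoxd8 and Hoxd9 with lecko below it, against 14.6% of all genes (7.37% above and 7.23% below). The median log2 fold change of the 12 was -0.09, with values from -0.38 to 0.28, against a median of 0.01 over all genes, and 5 were positive and 7 negative, where 51.9% of all genes were positive.

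**Figure D2:**
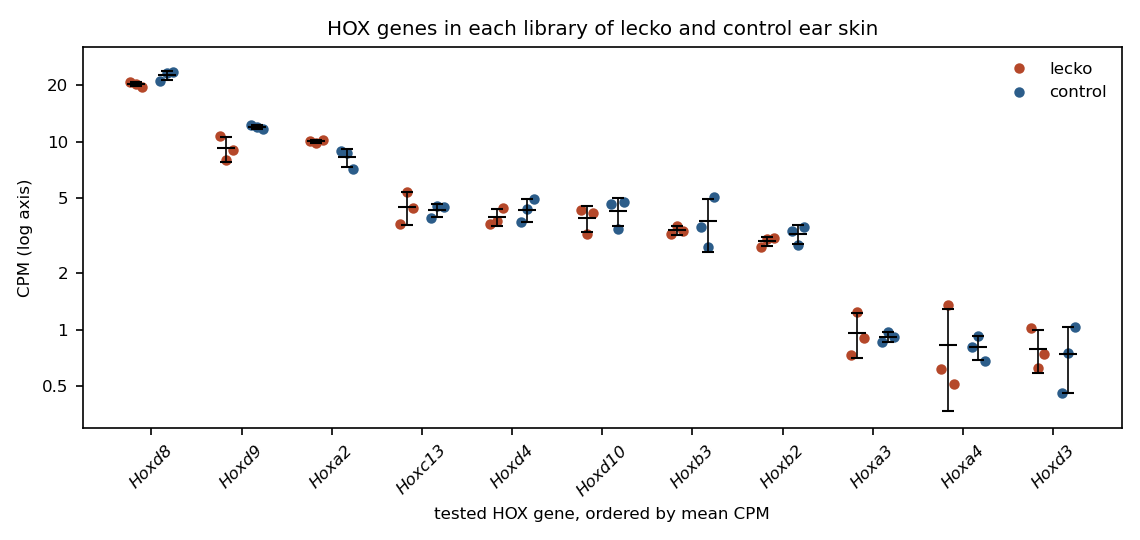
CPM on a logarithmic axis for 11 tested HOX genes, with a point per library, lecko left of control, and bars for the mean and SD (n = 3). Hoxd8, Hoxd9 and Hoxa2 have groups that do not overlap, and the other genes overlap between groups.

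Hoxa2, the second-arch gene that the mouse pinna needs, was at 10.1, 9.84 and 10.3 CPM in lecko libraries 1 to 3, against 8.94, 8.68 and 7.19 CPM in controls 1 to 3. All 3 lecko libraries lay above all 3 controls, with control 3 the lowest. The means were 10.1 ± 0.219 CPM in lecko and 8.27 ± 0.942 CPM in control skin (SD, n = 3 each). Its log2 fold change was 0.28 (SE 0.12, 95% interval 0.02 to 0.55), and its adjusted p in the edgeR fit was 0.558. Hoxa2 also shares 267 exonic bases with the gene model Gm28308 on its own strand.

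Hoxd9, a gene of posterior trunk and limb patterning in the embryo, was at 10.8, 7.97 and 9.02 CPM in lecko libraries 1 to 3, against 12.3, 12.0 and 11.8 CPM in controls 1 to 3. Here all 3 lecko libraries lay below all 3 controls, and the controls were tightly grouped. The means were 9.26 ± 1.42 CPM in lecko and 12.0 ± 0.290 CPM in control skin (SD, n = 3 each). The log2 fold change of Hoxd9 was -0.38 (SE 0.13, 95% interval -0.66 to -0.09) and its adjusted p in the edgeR fit was 0.510.

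Hoxd8, its neighbour on the 3′ side, was at 20.8, 20.4 and 19.7 CPM in lecko libraries 1 to 3, against 21.2, 23.2 and 23.6 CPM in controls 1 to 3. The groups were separate but close, with lecko 1 and control 1 less than 1 CPM apart. Its log2 fold change was -0.16 (SE 0.08, 95% interval -0.34 to 0.02), with an edgeR adjusted p of 0.614. Hoxd10, on the other side of Hoxd9, was at 4.35, 3.22 and 4.20 CPM in lecko libraries, against 4.67, 3.45 and 4.80 CPM in controls. Hoxd10 overlapped between groups, with the second library lowest in each, and its log2 fold change was -0.13 (95% interval -0.57 to 0.30). Summed over Hoxd8, Hoxd9 and Hoxd10, chosen for this sum after their values were seen, the level was 35.9, 31.6 and 32.9 CPM in lecko libraries, against 38.2, 38.7 and 40.1 CPM in controls.

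Controls 2 and 3, which carried the Y-linked counts, touch these 3 genes. The 3 genes are those whose groups do not overlap, so all lecko libraries lie on the same side of control 1 by that choice. Control 1 was at 8.94 CPM for Hoxa2, 12.3 CPM for Hoxd9 and 21.2 CPM for Hoxd8. Since controls 2 and 3 alone form the other sex group, a fit with sex as a covariate compares lecko with control 1 only. With sex as a covariate the log2 fold change was 0.17 for Hoxa2, -0.41 for Hoxd9 and -0.06 for Hoxd8, with unadjusted p = 0.349, 0.0597 and 0.609 in the edgeR fit. Of the cell type markers 0 were called by edgeR, but several lists lay to one side. All 6 blood endothelial markers had a negative log2 fold change, with a summed level of 295 to 321 CPM in lecko and 356 to 385 CPM in control skin. All 6 skeletal muscle markers were negative as well, with sums of 3167 to 4129 CPM in lecko and 4279 to 4773 CPM in control skin. For lymphatic endothelium 5 of 7 were negative, with sums of 311 to 338 CPM in lecko and 359 to 409 CPM in control skin, and all 6 leukocyte markers were positive, with sums of 913 to 1090 CPM in lecko and 654 to 913 CPM in control skin, touching at 913 CPM. Chondrocyte markers were positive in 5 of 5 tested, with sums of 574 to 896 CPM in lecko and 550 to 742 CPM in control skin. Melanocyte markers were positive in 4 of 4, with sums of 129 to 163 CPM in lecko and 94.7 to 148 CPM in control skin. Schwann cell markers were negative in 4 of 4, with sums of 653 to 734 CPM in lecko and 735 to 793 CPM in control skin. Of 7 dermal fibroblast markers 5 were positive, and of 6 keratinocyte markers 5 and of 4 adipocyte markers 3 were negative. Of all these markers 1, a chondrocyte gene, was at or under 3 counts in every library. The part of these cell types in the HOX values was not tested, and in whole skin fewer cells of a type and less RNA per cell cannot be told apart.

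A ratio within a library does not depend on how libraries are scaled. The ratio of Hoxa2 to Hoxd9 reads, picked after the values were seen and so not tested, was 0.937, 1.23 and 1.14 in lecko libraries 1 to 3, against 0.724, 0.722 and 0.612 in controls 1 to 3. The groups do not overlap in this ratio, which follows from Hoxa2 lying higher and Hoxd9 lower in every lecko library, and so adds no separate evidence. For Hoxd8 to Hoxd9 it was 1.93, 2.56 and 2.18 in lecko libraries, against 1.71, 1.93 and 2.00 in controls, with overlap.

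**Figure D3:**
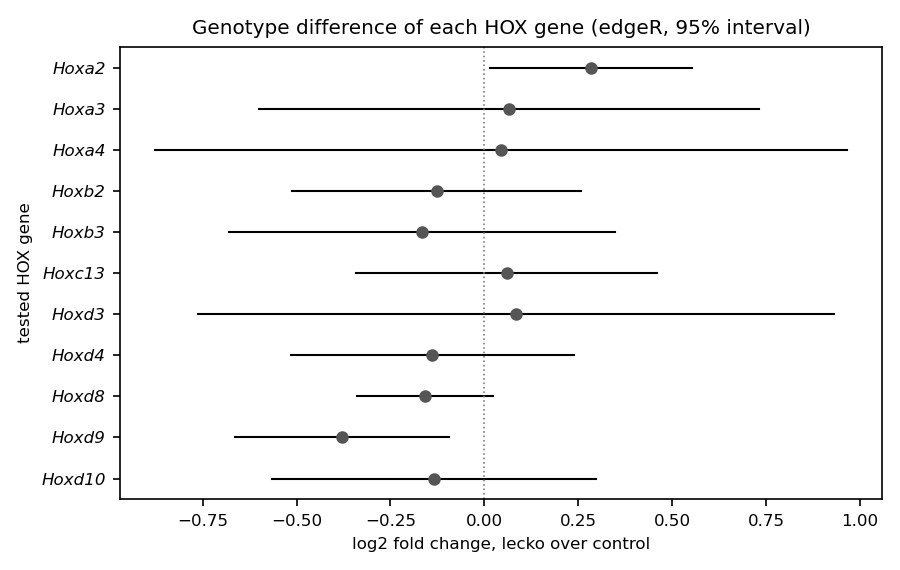
Log2 fold change of lecko over control for 11 tested HOX genes, in order of cluster and paralogue group, with lines for the 95% interval of edgeR's fit. Intervals of Hoxa2 (0.02 to 0.55) and Hoxd9 (-0.66 to -0.09) leave out 0 before adjustment, and the other 9 include it.

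Hoxb2, Hoxb3 and Hoxd4, which act in the embryonic hindbrain and neck, overlapped between the genotypes. Hoxb2 was at 2.77, 3.05 and 3.06 CPM in lecko libraries and 3.34, 2.82 and 3.54 CPM in controls. Hoxb3 was at 3.22, 3.56 and 3.35 CPM in lecko libraries and 3.52, 2.76 and 5.08 CPM in controls, with a coefficient of variation of 31.3% among controls. Hoxb2 and Hoxb3 both overlap the antisense RNA Hoxb3os, over 953 and 2250 exonic bases, and reads of the 2 strands cannot be told apart where the strand setting of the counting is not given. Hoxd4 was at 3.67, 3.79 and 4.43 CPM in lecko libraries and 3.75, 4.37 and 4.97 CPM in controls. It shares 388 exonic bases with Hoxd3 and 1154 with the gene model Gm28230, both on its own strand. Hoxd3 shares 2225 exonic bases with Gm28230, and Hoxd3 and Hoxd4 each overlap the antisense RNA Hoxd3os1 over 347. The log2 fold changes of Hoxb2, Hoxb3 and Hoxd4 ran from -0.17 to -0.13, with edgeR adjusted p from 0.834 to 0.851.

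The low genes Hoxa3, Hoxa4 and Hoxd3 had the least precise differences. Hoxa4, for example, was at 0.621, 1.36 and 0.511 CPM in lecko libraries and 0.807, 0.920 and 0.685 CPM in controls, and its 95% interval of the log2 fold change ran from -0.88 to 0.97. For Hoxa3 the interval was -0.60 to 0.73 and for Hoxd3 -0.76 to 0.93, so a change of moderate size in these genes was not detectable in these libraries. The median coefficient of variation of the 12 was 15.4% in lecko and 12.8% in control skin, against 11.3% and 11.7% over the 6201 tested genes in the same CPM range. For Hoxd9 it was 15.3% in lecko and 2.4% in control skin, where counting error alone gives 7.82% and 6.91%.

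Hoxc13, the hair follicle HOX gene, was at 3.67, 5.43 and 4.43 CPM in lecko libraries 1 to 3 and 3.92, 4.54 and 4.51 CPM in controls 1 to 3. The groups overlapped, with lecko libraries 1 and 2 as the lowest and the highest of all 6, and the log2 fold change was 0.06 (SE 0.18, 95% interval -0.34 to 0.46). Of 19 hair cortex genes and hair follicle factors listed, 18 were in the table and 11 could be tested, of which 0 were called by edgeR, 0 had an unadjusted p under 0.05 and 7 were positive. Krt84, a type II hair keratin, had the smallest p of the list, with 27.3, 22.4 and 37.6 CPM in lecko libraries and 46.8, 34.5 and 41.2 CPM in controls, a log2 fold change of -0.49 (edgeR adjusted p = 0.588). Krt81, another type II hair keratin, was at 0.959, 0.848 and 1.31 CPM in lecko libraries and 1.33, 0.115 and 0.0571 CPM in controls, so control 1 was the highest library of all. Controls 2 and 3 lay under the floor of 3 counts for this gene. The forkhead factor Foxn1, which acts in hair keratinocytes, was at 10.6, 14.7 and 12.9 CPM in lecko libraries and 13, 12.7 and 15.7 CPM in controls.

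**Figure D4:**
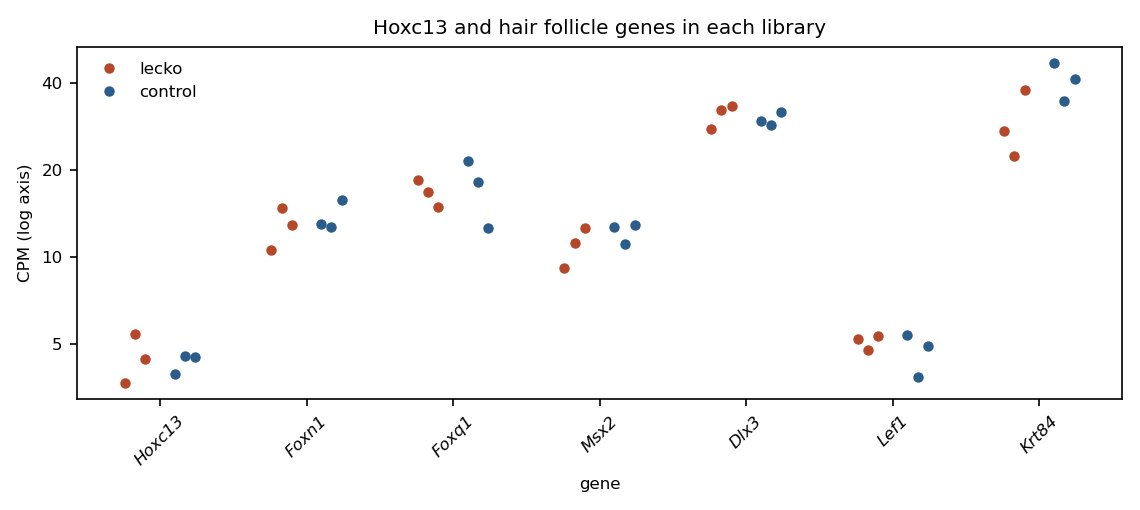
CPM on a logarithmic axis for Hoxc13 and 6 tested hair follicle genes, with a point per library and lecko left of control. Each gene overlaps between the groups, Krt84 at 37.6 CPM in lecko 3 and 34.5 CPM in control 2.

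HOX proteins bind DNA with cofactors of the TALE homeodomain class, PBX, MEIS and PKNOX. Of the 9 cofactor genes, 8 were tested, 0 were called and 2 had an unadjusted p under 0.05, a mark that 8.56% of all genes passed. Meis1 was at 30.8, 36.6 and 36.7 CPM in lecko libraries 1 to 3, against 24.2, 28.6 and 29.5 CPM in controls 1 to 3, with a log2 fold change of 0.34 (SE 0.10, edgeR adjusted p = 0.501). All lecko libraries lay above all controls for Meis1, named for the smallest p of the list. They did so for 2 of the 8 genes and lay below for 0, against 7.37% and 7.23% of all genes. The median of the 8 was 0.03.

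Polycomb complexes keep silent HOX genes off and Trithorax complexes keep active ones on. All 27 Polycomb genes were tested, with 0 called, 15 positive and a median log2 fold change of 0.01. Cbx6, a chromodomain subunit, was at 113, 114 and 110 CPM in lecko libraries, against 92.0, 103 and 91.3 CPM in controls (log2 0.23). Bmi1, a core subunit of the PRC1 complex, was at 54.9, 55.2 and 56.3 CPM in lecko libraries, against 47.9, 51.7 and 47.8 CPM in controls (log2 0.17). Cbx6 and Bmi1 were named for the smallest p of the list (edgeR adjusted p = 0.466 and 0.510). Of the 27 genes, 2 did not overlap with lecko higher and 0 with lecko lower, against 7.37% and 7.23% of all genes. All 17 Trithorax and demethylase genes were tested, with 0 called, 11 positive and a median of 0.03. Kdm6a, the X-linked H3K27 demethylase that is known to escape X inactivation, was at 70.0, 79.8 and 88.5 CPM in lecko libraries, against 67.5, 46.2 and 54.0 CPM in controls. Controls 2 and 3, which held the Y-linked counts, were lowest, and control 1 also lay below all lecko libraries. The part of sex in the Kdm6a values was not tested. Psip1, which tethers MLL complexes to chromatin, was at 39.5, 38.1 and 42.2 CPM in lecko libraries, against 36.0, 35.6 and 32.1 CPM in controls. Kdm6a and Psip1 were likewise named for the smallest p of their list (edgeR adjusted p = 0.504 and 0.526). Of the 17 genes, 3 did not overlap with lecko higher and 2, Kmt2d and Rbbp5, with lecko lower. The shares over all genes were 7.37% and 7.23%.

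Retinoic acid switches on 3′ HOX genes in the embryo. Of its 18 pathway genes 17 were tested, with 0 called, 11 positive and a median log2 fold change of 0.05. At an unadjusted p under 0.05 there were 4 positive and 2 negative genes of 17, against 4.88% positive and 3.68% negative over all genes. Rxrb, a retinoid X receptor, was at 42.2, 42.7 and 43.1 CPM in lecko libraries, against 48.8, 47.5 and 48.0 CPM in controls (log2 -0.17). Aldh1a3, which makes retinoic acid, was at 5.47, 5.60 and 6.24 CPM in lecko libraries, against 4.73, 4.25 and 3.77 CPM in controls (log2 0.44). The 2 genotypes did not overlap for either gene, both named for the smallest p of the list. Of the 17 genes, 1 did not overlap with lecko higher and 2 with lecko lower, against 7.37% and 7.23% of all genes.

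Position in the head is also recorded by homeobox and T-box genes outside the HOX clusters. Of 37 cranial and ear patterning factors 34 were in the table and 29 were tested, with 0 called, 18 positive and a median log2 fold change of 0.05. At an unadjusted p under 0.05 there were 5 positive and 0 negative genes of 29, against 4.88% and 3.68% over all genes. Prrx1, a mesenchymal homeobox gene, was at 169, 185 and 182 CPM in lecko libraries 1 to 3, against 141, 158 and 154 CPM in controls 1 to 3, with a log2 fold change of 0.24 (SE 0.06, edgeR adjusted p = 0.439). Pax9 was at 1.64, 1.98 and 1.19 CPM in lecko libraries, against 0.923, 1.03 and 0.856 CPM in controls (log2 0.77). All lecko libraries lay above all controls in both genes, named for the smallest p of the list. They did so in 6 of the 29 genes and lay below in 0, against 7.37% and 7.23% of all genes.

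Limb and trunk factors summed to 26.6 to 32.2 CPM in lecko and 30.2 to 33.5 CPM in control skin. Of 14 genes 9 were tested, with 0 called and a median log2 fold change of 0.02. Pitx1 and Tbx5, factors of hindlimb and forelimb, had at most 2 counts in any library, and En1 at most 4. Isl1 was at 1.47, 1.70 and 1.36 CPM in lecko libraries, against 1.5, 1.72 and 2.46 CPM in controls (log2 -0.33). Of 9 ParaHox and related homeobox genes, relatives of HOX outside the clusters, 4 were in the table and 0 could be tested. Cdx1, Cdx4 and Gbx2 had 0 counts in every library, and Gbx1 reached 0.341 CPM. The 13 HOX cluster non-coding RNAs and flanking Evx genes on the list were not analysed here.

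Genes that flank the HOX clusters gave a local background. Of 12 such genes 10 were tested, with 0 called and a median log2 fold change of 0.04. Next to Hoxd, Mtx2 was at 38.0, 36.9 and 39.7 CPM in lecko libraries and 36.7, 37.5 and 38.5 CPM in controls, with overlap. Tax1bp1 near Hoxa was at 222, 215 and 227 CPM in lecko libraries and 213, 203 and 210 CPM in controls (log2 0.09). Skap1 near Hoxb, which encodes an adaptor of T cells, was at 2.03, 1.36 and 1.59 CPM in lecko libraries and 1.04, 1.55 and 0.343 CPM in controls (log2 0.76).

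**Figure D5:**
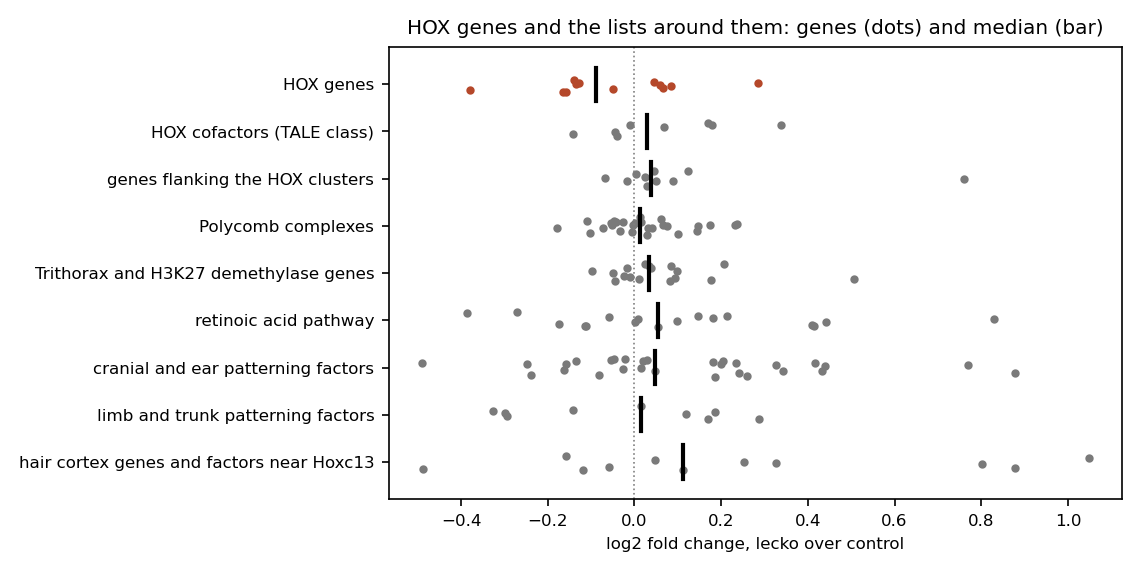
Log2 fold change of lecko over control for each tested gene (dots) of the HOX genes and of the lists around them, with a bar at the median. List medians run from 0.01 to 0.11, and the HOX median is -0.09. Dots are spread vertically for visibility only.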

How the data were processed

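Polyadenylated RNA of 6 ear skin libraries was measured. The authors deposited estimated counts per gene, and 9.60 to 10.5% of a library's values have a fractional part. RSEM 1.3.1, Bowtie2 2.4.5 and HISAT2 2.2.1 appear, with the build GRCm38.p6, per the submitters' processing notes, while tool roles, annotation and strand setting are not given in these sources. Counts were rounded, filtered with filterByExpr (minimum count 10, minimum total 15), scaled by TMM and fitted by genotype alone in edgeR 4.0.16 under R 4.3.3, with the robust form of the quasi-likelihood test. P-values were adjusted by Benjamini-Hochberg over 14856 genes, with a threshold of 0.05. CPM use TMM-scaled library sizes, and floors and counting errors cover counting error only. Scripts were tested on simulated data.

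Alternatives were DESeq2 1.42.0, limma-voom 3.58.1, other scalings, filters and dispersion settings, a replicate block, sex as a covariate (Y-linked threshold 10 CPM) and leaving out each library. Tested HOX genes are named, other lists give up to 2 genes with the smallest p, a few genes are not reported here, and genes outside this rule (Foxn1, Mtx2, Lnpk, and those at or near 0) were chosen after their values were seen. Members and lists were chosen with earlier results of these data known. Coordinates come from RefSeq, where 18432 gene IDs matched.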

Additional observations from a re-analysis of the deposited data

How the results depend on the processing

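Under all 17 alternative fits 0 of the 12 HOX genes tested in the main fit were called, and the strict filter left 9 to test. DESeq2 and the fit without a low-count filter also took in lower HOX genes, which this count leaves out. The number of HOX genes at 1 CPM or more stayed at 9 under each alternative except a level of 0.5 CPM, which gave 12. Over all genes DESeq2 made 32 calls, and leaving out single libraries gave 3 to 37, against 3 (8 without control 1, 37 without control 2, 6 without lecko 2). The HOX median of -0.09 was -0.010 with sex as a covariate, -0.017 with control 1 as the only control (chosen after seeing the data, with the lone sample assumed to vary like the other group) and -0.14 to -0.012 with single libraries left out. Hoxa2, Hoxb2, Hoxd8, Hoxd9 and Hoxd10 kept their sign under every alternative. The log2 fold change of Hoxd9 ran from -0.51 to -0.28 (smallest adjusted p = 0.372 by edgeR) and that of Hoxa2 from 0.17 to 0.34 (0.427). Hoxa4 turned to -0.074 by limma-voom, and Hoxd4 to 0.079 with sex as a covariate and 0.073 with control 1 alone. With single libraries left out the values ran from -0.16 to 0.22 for Hoxa3, -0.50 to 0.30 for Hoxa4, -0.35 to 0.10 for Hoxb3, -0.10 to 0.18 for Hoxc13 and -0.17 to 0.385 for Hoxd3, which was at 0.77 with sex as a covariate and 0.76 with control 1 alone, against 0.085. Both settings compare the lecko libraries with control 1, since controls 2 and 3 alone lie above the Y-linked threshold. The 2 settings are therefore not independent checks. Control 1 was the lowest library for Hoxd3, at 0.461 CPM, and why it was lowest was not tested. Whether replicate numbers pair the libraries cannot be told from 3 libraries per group. Deviations of same-numbered libraries correlated at 0.34, -0.07 and 0.04, and those of differently numbered libraries at -0.28 to 0.23. A replicate block made 3 calls, 0 of them HOX, with Hoxd9 at -0.39. Of 128 list medians under the alternatives, 9 moved by more than the spread between libraries. The limb and trunk median was -0.141 under the strict filter, against 0.016. The cranial and ear median was 0.115 without lecko 1, against 0.048. With sex as a covariate the median of the hair genes was -0.35, against 0.11, and that of the retinoic acid genes -0.012, against 0.054. The retinoic acid median also ran from -0.024 (without lecko 1) to 0.095 (without lecko 3) with single libraries left out, and was -0.017 without lecko 2. Half-widths of the 95% interval ran from 0.18 for Hoxd8 to 0.92 for Hoxa4, where the coefficient of variation was 55.5% in lecko libraries and counting error alone gives 26.1%.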
